A study of Homo sapiens with 12 samples.

Results

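The genes described here are NES, SOX11, VGF, CCND1, ANLN, EPHA2, ANK2, SEMA5B and ABCA1, 9 of 19305 coding sequences counted in every library. They were chosen by their footprint levels, which differed between set 2 and set 1 of the H9 libraries, so that difference is a description and carries no test. The series profiled ribosome-protected fragments in 12 libraries of human cell lines, with eIF2A, an alternative initiator tRNA carrier, as the knockdown target. In H9 human embryonic stem cells, the set 2 and set 1 libraries each held 1 labelled eIF2A shRNA and 1 labelled control shRNA, with no immunoprecipitation. In HEK293T embryonic kidney cells all 8 libraries were from cells exposed to sodium arsenite, an oxidative stressor, and treated with eIF2A siRNA or control siRNA. There, mRNAs were pulled down with CBP80, a subunit of the nuclear cap-binding complex, or with eIF4E, the main cytoplasmic cap-binding protein, before profiling, with 1 library per siRNA, cap-binding protein and set. The coding sequences are those of NM_006617 (NES), NM_003108 (SOX11), NM_003378 (VGF), NM_053056 (CCND1), NM_018685 (ANLN), NM_004431 (EPHA2), NM_001148 (ANK2), NM_001256346 (SEMA5B) and NM_005502 (ABCA1). The labels name no clone, shRNA or siRNA sequence, vector, arsenite dose or passage.

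H9 libraries held 937990 to 1878700 coding reads and HEK293T libraries 4331459 to 5775177. Levels are given as CPM, the count of a gene scaled to a library's total coding reads. The limit set by a count of 0, taken as 3 counts, corresponds to 1.60 to 3.20 CPM in H9 and 0.519 to 0.693 CPM in HEK293T. The libraries did not follow all of their labels. Within each of the 4 HEK293T combinations of siRNA and set, counts after CBP80 and after eIF4E pull-down differed by little more than sampling noise (chi-square per degree of freedom 1.01 to 1.03), so each pair was summed and counted as 1 sample, giving 4 HEK293T samples. The eIF2A and control shRNA libraries of an H9 set were nearly as close, at 1.04 and 1.07, while H9 libraries of different sets gave 2.67 to 3.31. The targeted gene, EIF2A, stood at 68.2 CPM in the library labelled eIF2A shRNA of set 2 and 60.9 CPM in its control, against 110.2 and 103.4 CPM in the same labels of set 1. In H9 it therefore separated the sets and not the shRNA labels. Whether the H9 labels are crossed cannot be told from the titles, and if they are, set 2 over set 1 is the knockdown contrast and every H9 ratio below changes its meaning. In HEK293T, runs summed, EIF2A was 46.7 CPM in the eIF2A siRNA sample of set 2 and 83.5 CPM in its control, but 96.0 CPM in the eIF2A siRNA sample of set 1 and 83.2 CPM in its control. Groups are therefore named below by what the library is labelled.

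Nestin, the product of NES, is an intermediate filament protein of neural progenitor cells, and SOX11 is a transcription factor of the SoxC group active in embryonic neural development. VGF is a secreted neuropeptide precursor of the granin family, cyclin D1 from CCND1 drives progress from G1 into S phase, and anillin from ANLN scaffolds the contractile ring at cytokinesis. The remaining products act at the membrane: EPHA2 is a receptor tyrosine kinase for A-type ephrins, SEMA5B a transmembrane semaphorin that guides axons, ANK2 an ankyrin that ties membrane proteins to spectrin, and ABCA1 exports cholesterol and phospholipid to apolipoproteins. Human embryonic stem cells are known for a short G1 phase and for entering neural fates readily.

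Of the 9 genes, 8 had higher footprint levels in set 2 than in set 1 of H9, and SOX11 alone had lower ones. NES, the neural progenitor filament gene, had 1066 and 1065 CPM in the eIF2A and control shRNA libraries of set 2, against 445 and 481 CPM in set 1, a ratio of 2.31 with both labels summed (exact 95% interval 2.17 to 2.46). The interval covers counting error only and leaves out the spread between samples. The reads carry no molecular identifiers, so repeated copies of 1 fragment could not be told from separate fragments. In bulk samples, fewer cells expressing a gene and fewer footprints per cell cannot be told apart. None of the 12 libraries measured mRNA alone, so a footprint level does not separate the amount of an mRNA from its translation. SOX11 ran the other way, with 84.2 and 76.8 CPM in set 2, against 179.9 and 156.6 CPM in set 1 (ratio 0.470, 0.398 to 0.554). For both genes the shRNA labels within a set lay close together. That the sets did not overlap follows from how the genes were picked. The libraries of a set are nearly alike over all genes, so their agreement adds little.

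VGF, the neuropeptide precursor, had 73.6 CPM in the eIF2A shRNA library of set 2 and 88.0 CPM in its control, against 33.0 and 27.9 CPM in set 1. Its ratio of 2.69 (2.12 to 3.44) was the highest of the 9. The cell cycle genes followed closely. CCND1 had 158.9 and 129.0 CPM in the eIF2A and control libraries of set 2, against 47.9 and 60.9 CPM in set 1, a ratio of 2.61 (2.18 to 3.14). ANLN had 88.5 and 66.8 CPM in set 2, against 27.2 and 31.7 CPM in set 1, a ratio of 2.57 (2.01 to 3.31). For VGF, CCND1 and ANLN alike, the lowest library of set 2 was above the highest of set 1, which again follows from the picking.

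The membrane genes had smaller ratios. EPHA2, the ephrin receptor, had 81.0 and 91.3 CPM in the eIF2A and control libraries of set 2, against 49.0 and 41.2 CPM in set 1 (ratio 1.92, 1.56 to 2.38). SEMA5B had 81.0 and 101.9 CPM in set 2, against 55.4 and 49.5 CPM in set 1 (ratio 1.78, 1.46 to 2.18). The ankyrin ANK2 had 72.5 and 62.9 CPM in set 2, against 34.6 and 33.6 CPM in set 1 (ratio 1.95, 1.53 to 2.49). The sets stayed apart in each of these, by the same choice of genes. ABCA1, the cholesterol exporter, had 104.5 and 128.4 CPM in set 2, against 60.2 and 58.3 CPM in set 1 (ratio 2.01, 1.68 to 2.42). The plot of H9 levels shows all 4 libraries for each gene.

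**Figure D1:**
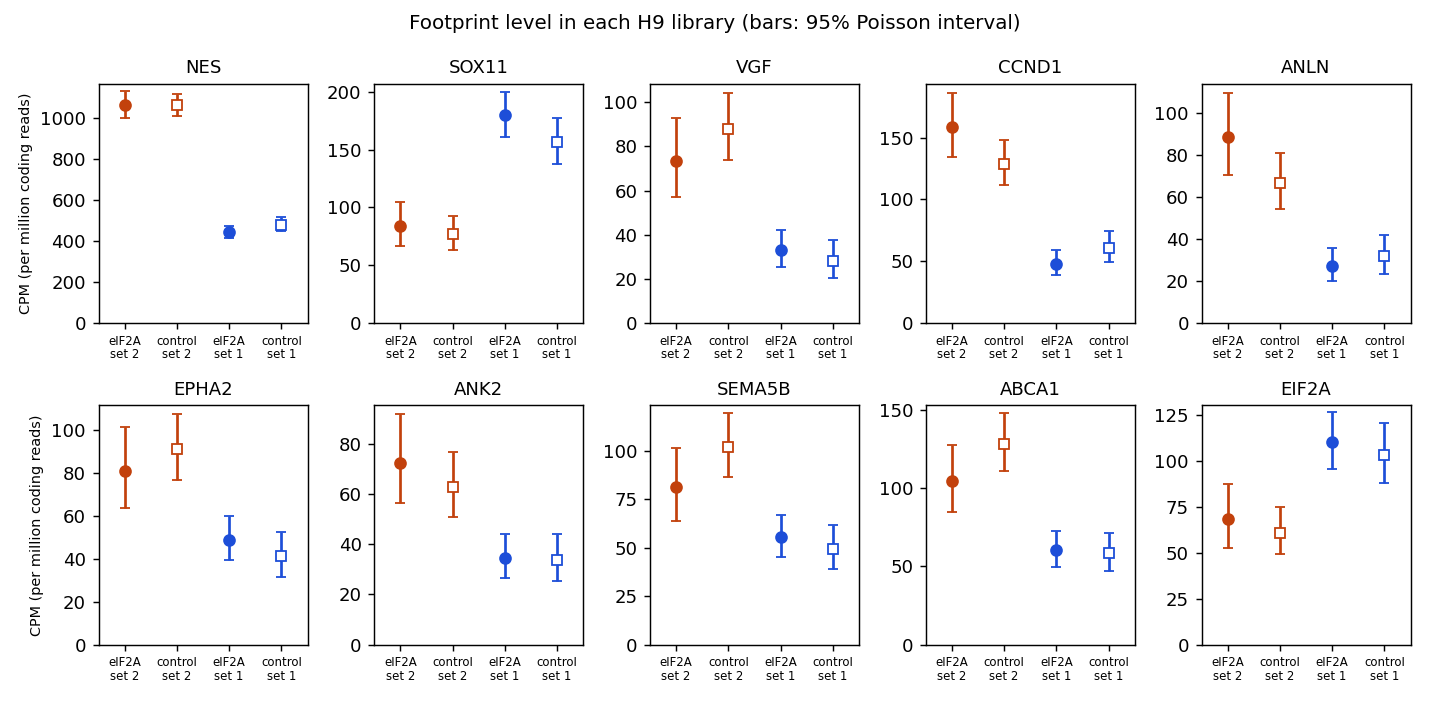
Footprint level in CPM (vertical axes from 0) of the 9 genes and EIF2A in the 4 H9 libraries, labelled by shRNA and set along the horizontal axes, with 95% Poisson intervals as bars. Set 2 lies above set 1 for 8 genes and below it for SOX11 and EIF2A.

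The set ratio was also taken within each shRNA label. For NES it was 2.40 in the libraries labelled eIF2A shRNA and 2.22 in those labelled control shRNA. For SOX11 it was 0.468 and 0.490, so these 2 genes varied least between labels. CCND1 (3.32 in eIF2A, 2.12 in control) and ANLN (3.26 and 2.11) had the larger ratio under the eIF2A label. VGF (2.23 in eIF2A, 3.16 in control), EPHA2 (1.66 and 2.22), SEMA5B (1.46 and 2.06) and ABCA1 (1.74 and 2.20) had the larger one under the control label, and ANK2 was near 2-fold in both (2.10 and 1.87). The intervals of the 2 labels overlapped for every gene.

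**Figure D2:**
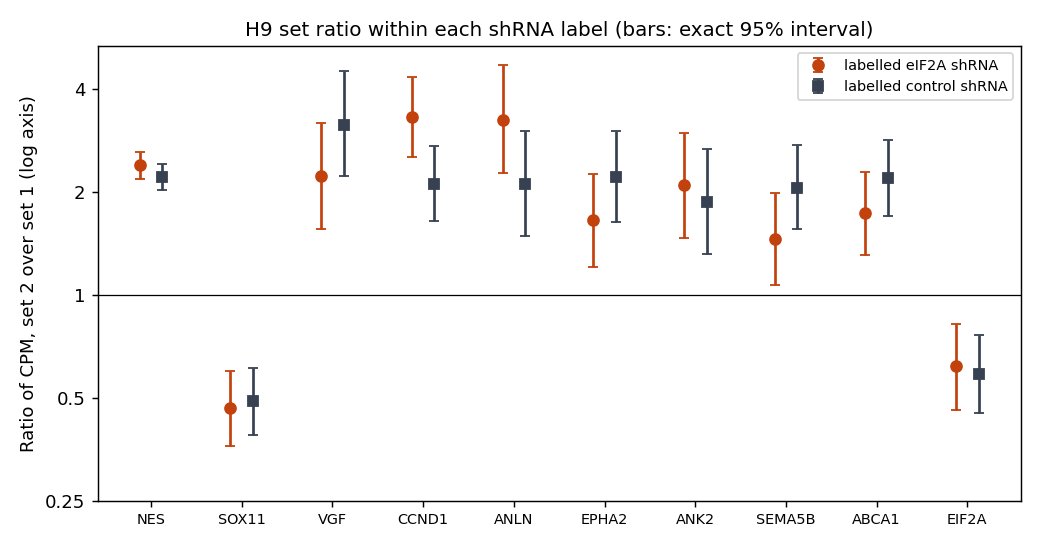
Ratio of CPM in H9 set 2 over set 1 (log axis) for the 9 genes and EIF2A, in libraries labelled eIF2A shRNA (circles) and control shRNA (squares), with exact 95% intervals for counting error. The label intervals overlap for each gene, from SEMA5B (1.46 and 2.06) to CCND1 (3.32 and 2.12).

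Among 8671 genes with a mean of at least 10 CPM in H9, the median log2 ratio of set 2 over set 1 was -0.02, and the central 80% lay between -0.46 and 0.37. At least 2-fold higher in set 2 in both shRNA labels were 17 genes (0.196%), and at least 2-fold lower were 34 (0.392%). NES, VGF, CCND1 and ANLN were among the higher and SOX11 among the lower, which follows from how they were picked. Ranked from the highest ratio with labels summed, VGF was 6, CCND1 7, ANLN 8, NES 18, ABCA1 40, ANK2 46, EPHA2 49 and SEMA5B 83. SOX11 was 45 and EIF2A 232 from the lowest. EPHA2, SEMA5B and ABCA1 fell short of 2-fold under the eIF2A label, and ANK2 under the control label.

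**Figure D3:**
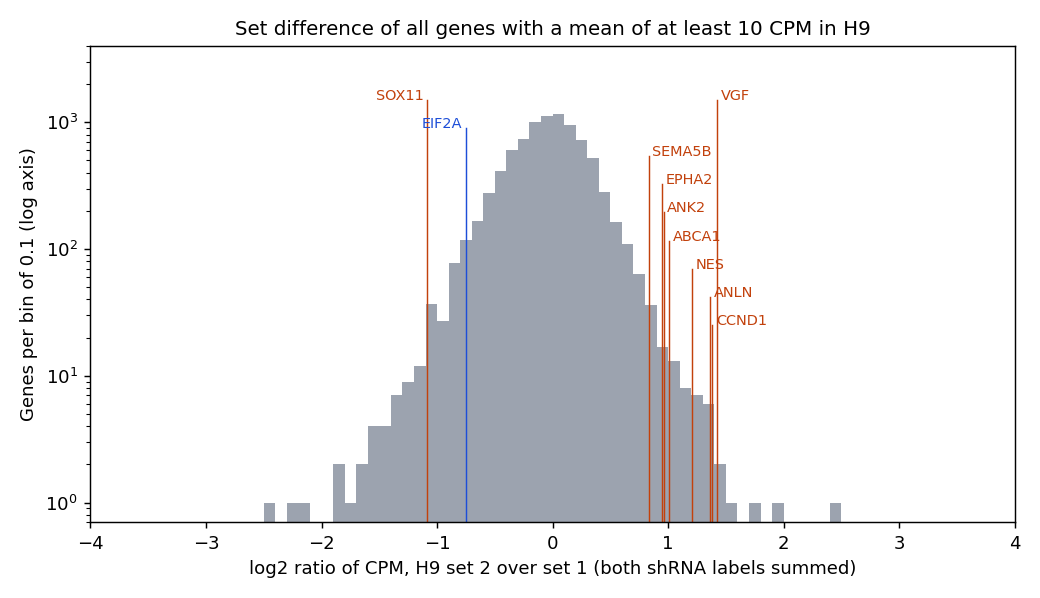
Distribution over 8671 genes of the log2 ratio of CPM, H9 set 2 over set 1, with labels summed (horizontal axis) as genes per bin (vertical log axis), with the 9 genes and EIF2A marked. VGF lies farthest right of them at 1.43 and SOX11 farthest left at -1.09.

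Markers of cell state were read beside these levels. The 15 pluripotency markers summed to 6800 and 7017 CPM in set 2 and to 7331 and 7334 CPM in set 1, so both sets carried the stem cell genes. LIN28A, an RNA-binding protein of pluripotent cells, was 379 CPM in both set 2 libraries, against 518 and 503 CPM in the eIF2A and control libraries of set 1. SOX2, of the same list, went the other way, at 265.5 and 291.8 CPM in set 2, against 256.0 and 245.4 CPM in set 1. Of 13 pluripotency markers with at least 10 CPM, 0 passed 2-fold in both labels, and their median log2 ratio was -0.05. POU5F1 was listed at 0 in all 12 libraries. The cause was not tested, and this 0 is not read as absence from H9. The neural ectoderm list summed to 20.3 to 25.8 CPM in set 2 and 26.0 to 29.8 CPM in set 1, with PAX6 at 0 in all 4 H9 libraries and SOX1 at 0 to 3.73 CPM. DCX of that list had 6.40 and 5.96 CPM in the eIF2A and control libraries of set 2. In set 1 it had 8.52 and 6.98 CPM. Of the 12 listed markers, 1 reached a mean of 10 CPM in H9. NES was thus covered in libraries in which PAX6 and SOX1 were at or near 0 and DCX was low. The 10 fibroblast markers summed to 1190 to 1249 CPM in set 2 and 967 to 984 CPM in set 1. Among them COL1A1, a fibrillar collagen chain, had 178.0 and 160.8 CPM in set 2, against 110.7 and 119.8 CPM in set 1. The mesoderm list summed to 269 to 301 CPM in set 2 and 240 to 244 CPM in set 1, and the neural crest list to 62.2 to 64.0 and 52.0 to 61.2 CPM. Trophoblast and amnion markers summed lower in set 2 (171 to 179 CPM) than in set 1 (224 to 230 CPM), and endoderm markers summed to 10.7 to 13.9 and 10.1 to 15.4 CPM. In H9, 6 of 10 fibroblast, 1 of 10 mesoderm and 1 of 7 neural crest markers reached a mean of 10 CPM. Of trophoblast and amnion markers 2 of 11 did, with 7 to 9 at 0 in each library, and of endoderm markers 0 of 9. Outside the fibroblast list these sums therefore rest on few genes. Of uniquely placed reads, 31.0% lay outside coding sequences in both set 2 libraries, against 29.0 and 28.9% in set 1. The part of these markers and of that share in the set difference was not tested.

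Genes that work with the 9 were followed through 9 lists, each counted without its own member above. In all, 3 of 99 genes of these lists with at least 10 CPM passed 2-fold in both labels (3.03%, against 0.588% over all genes), and since the lists were chosen with earlier results known, nothing is read from that share. Of the intermediate filament genes, 0 of 7 passed 2-fold in either direction in both labels, with a median log2 ratio of -0.09, beside -0.02 over all genes. Vimentin (VIM), a partner with which nestin assembles, had 987 and 964 CPM in the eIF2A and control libraries of set 2, against 1012 and 1004 CPM in set 1. Of 13 other neural progenitor and SOX genes, 1 was higher, 0 were lower and the median was 0.17. The higher gene was SOX3, a SoxB1 factor of neural progenitors, at 65.0 and 72.1 CPM in set 2, against 28.2 and 26.6 CPM in set 1. It was named after its values were seen. SOX4, in the same SoxC group as SOX11, had a ratio of 1.47 (1.32 to 1.63) where SOX11 had 0.470.

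The granin list held 0 of 6 past 2-fold, with a median of -0.11. Chromogranin A (CHGA), another granin, had 230 CPM in both set 2 libraries, against 258 and 236 CPM in the eIF2A and control libraries of set 1. D cyclins and G1 to S genes held 0 of 12 past 2-fold (median 0.08). Cyclin D2 (CCND2) had a ratio of 1.35 (1.22 to 1.49), and CDK4, the kinase partner of D cyclins, 0.707 (0.645 to 0.774). Of the cytokinesis genes 0 of 19 passed, with a median of 0.18, and MYH9, a non-muscle myosin heavy chain, had a ratio of 1.27 (1.21 to 1.33).

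Among membrane genes, 1 of 10 Eph receptors and ephrins was lower and 0 were higher (median -0.01). It was EFNB2, an ephrin ligand, at 5.33 and 7.28 CPM in the eIF2A and control libraries of set 2, against 16.0 and 20.3 CPM in set 1. Its receptors EPHB4 (ratio 1.33, 1.09 to 1.61) and EPHA4 (1.31, 1.03 to 1.66) stayed under 2-fold. Of 7 ankyrins and spectrins 1 was higher and 0 were lower, with a median of 0.57, the highest of the 9 lists. The higher one was ANK1, the erythrocyte ankyrin, at 13.9 and 18.5 CPM in set 2, against 3.19 and 5.71 CPM in set 1. ANK3 had a ratio of 1.62 (1.27 to 2.06) and the spectrin SPTAN1 1.58 (1.21 to 2.07). Of 16 semaphorins, plexins and neuropilins 0 passed (median 0.08), and of 9 ABCA transporters and cholesterol efflux genes 0 passed (median 0.18). EFNB2 and ANK1 were likewise named after their values were seen.

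Promoters are shown for the 5 genes with a single annotated start in RefSeq's table of GRCh38.p14, to lay their start regions side by side. Each is the 250 bases before the start, read 5′ to 3′ on the gene's strand. Capitals mark matches on either strand to 5 motifs. The TATA box was searched as TATAAA, the GC box as GGGCGG and the CCAAT box by its name's letters. The cAMP response element was searched as TGACGTCA and the E-box as CACGTG, and no motif contains another. NES lies at chr1:156677408-156677657, minus strand, VGF at chr7:101165570-101165819, minus strand, ANLN at chr7:36389612-36389861, plus strand, EPHA2 at chr1:16156070-16156319, minus strand, and ABCA1 at chr9:104928156-104928405, minus strand.
NES: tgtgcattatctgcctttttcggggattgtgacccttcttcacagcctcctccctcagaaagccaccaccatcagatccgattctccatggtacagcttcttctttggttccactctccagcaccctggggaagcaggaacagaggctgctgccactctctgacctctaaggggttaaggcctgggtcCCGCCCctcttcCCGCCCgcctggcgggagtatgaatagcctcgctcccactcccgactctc
VGF: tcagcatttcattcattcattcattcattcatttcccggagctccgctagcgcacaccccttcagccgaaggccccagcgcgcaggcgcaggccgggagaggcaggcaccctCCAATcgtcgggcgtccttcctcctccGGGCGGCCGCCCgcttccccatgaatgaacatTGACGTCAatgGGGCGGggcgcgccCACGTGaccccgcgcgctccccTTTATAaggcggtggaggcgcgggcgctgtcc
ANLN: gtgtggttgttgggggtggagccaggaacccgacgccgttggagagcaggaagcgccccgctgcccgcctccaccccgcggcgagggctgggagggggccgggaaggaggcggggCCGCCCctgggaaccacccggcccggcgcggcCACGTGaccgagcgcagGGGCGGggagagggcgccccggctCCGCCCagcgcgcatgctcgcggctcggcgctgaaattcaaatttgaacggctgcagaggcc
EPHA2: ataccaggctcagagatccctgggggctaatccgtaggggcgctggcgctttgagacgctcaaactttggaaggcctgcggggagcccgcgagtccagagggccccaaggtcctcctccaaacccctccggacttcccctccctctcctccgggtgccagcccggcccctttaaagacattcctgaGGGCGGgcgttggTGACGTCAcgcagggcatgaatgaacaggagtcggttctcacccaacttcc
ABCA1: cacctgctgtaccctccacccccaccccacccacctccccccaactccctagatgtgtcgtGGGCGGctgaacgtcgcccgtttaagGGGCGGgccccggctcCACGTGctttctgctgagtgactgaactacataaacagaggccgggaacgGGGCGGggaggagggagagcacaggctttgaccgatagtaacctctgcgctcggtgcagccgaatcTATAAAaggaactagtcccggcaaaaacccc
Each of the 5 held a GC box, which 42.6% of 35116 promoters of that length in the table held. VGF and EPHA2 held a cAMP response element, 79 and 51 bases before the start, found in 1.65% of promoters. VGF, ANLN and ABCA1 held an E-box (6.34% of promoters), and VGF and ABCA1 a TATA box 32 and 31 bases before the start (10.7%). VGF also held CCAAT (32.0%). TGANTCA, the AP-1 motif, was searched too and was in none of these 5 windows (6.57% of promoters). GC content ran from 58.0% in NES to 75.2% in ANLN, against a median of 58.0% over all promoters. A match describes letters in the window and is not a bound site. ANK2 has 10 annotated starts and SEMA5B has 3, so neither was printed.

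In H9 the shRNA label was tested over the same 4 libraries with edgeR's quasi-likelihood test, in which the set difference counts as spread. The 9 genes were picked for that difference, so their intervals are wide by choice and their not passing carries little weight. EIF2A itself was 1.12 times its control in the eIF2A library of set 2 (0.802 to 1.56) and 1.07 times in that of set 1 (0.864 to 1.32). If the labels are crossed, this test compares replicates and not the knockdown. None of the 9 genes passed between eIF2A and control shRNA, and 0 of 9751 genes did (0%), with 84 at an unadjusted p under 0.05 and 0 with DESeq2. The log2 fold for NES was -0.05 (95% interval -1.15 to 1.06) and for SOX11 0.22 (-0.60 to 1.05). The widest interval was that of CCND1, 0.04 (-1.30 to 1.37), which does not exclude a change of more than 2-fold either way. The other 6 log2 folds ran from -0.23 for ABCA1 to 0.11 for ANLN, and every adjusted p was 1.

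Within a set the libraries bound the label difference more tightly, by counting error alone. NES in the eIF2A library was 1.001 times its control in set 2 (0.924 to 1.08) and 0.926 times in set 1 (0.838 to 1.02). SOX11 was 1.10 times its control in set 2 and 1.15 times in set 1. For all 9 genes the ratio ran from 0.787 for CCND1 in set 1 to 1.32 for ANLN in set 2, and every interval of the 9 genes in both sets included 1. CCND1 pointed opposite ways, with 1.23 in set 2 (0.988 to 1.53) and 0.787 in set 1 (0.584 to 1.06).

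In HEK293T many genes differed between the siRNA labels, 1534 of 12331 in the edgeR fit of the 4 summed samples at a threshold of 0.05 after adjustment (12.4%, 758 higher and 776 lower). Of the 9 genes, 7 had enough reads to be tested and 0 passed. SOX11, with 2 reads over all 8 libraries, and SEMA5B, with 18, did not pass the count filter. The labels do not say that samples came from separate cultures, so p measures no more than the spread among these samples, part or all of which may be technical. The fit took most of each gene's spread from other genes. Of uniquely placed reads, 42.3 to 51.1% lay outside coding sequences in libraries labelled eIF2A siRNA and 35.2 to 40.1% in control libraries, and the part of this in the calls was not tested. The numbers called depended on single samples, as 75 genes passed without the control sample of set 2 and 287 without the eIF2A sample of set 1.

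Of the 7 genes, ANK2 had the smallest unadjusted p by edgeR (0.122) and ANLN the next (0.129). For ANLN the libraries labelled eIF2A siRNA had 179.9 and 174.2 CPM in set 2 and 173.3 and 187.5 CPM in set 1 (CBP80 before eIF4E). The control libraries had 151.7 and 145.0 CPM and 136.0 and 149.5 CPM. Each CBP80 and eIF4E pair differs by little more than sampling noise and counts as 1 sample. The summed samples averaged 178.6 ± 2.3 CPM with eIF2A siRNA and 145.7 ± 4.1 CPM with control siRNA (SD, n = 2 each). The fit gave a log2 fold of 0.21 (SE 0.13, adjusted p = 0.331 by edgeR), so the difference did not pass the test. Its scaling lowers every log2 fold of this comparison by 0.09 relative to CPM. ANLN's log2 fold was 0.24 (adjusted p = 0.454) without the eIF2A sample of set 1, in which EIF2A was not lower than in its control.

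ANK2 had 33.8 CPM in the eIF2A sample of set 2 and 39.7 CPM in that of set 1, against 39.5 and 41.3 CPM in the controls. Its log2 fold was -0.23 (SE 0.15, adjusted p = 0.319). VGF had 3.05 and 2.34 CPM in the eIF2A samples of set 2 and set 1, against 2.0 and 1.67 CPM in the controls, from 19 to 34 reads per sample (log2 fold 0.49, SE 0.36, adjusted p = 0.401). Neither passed the edgeR test, whose spread came mostly from other genes. ABCA1 had 7.90 and 10.9 CPM in the eIF2A samples of set 2 and set 1, against 8.11 and 7.74 CPM in the controls, so set 1 alone was high (log2 fold 0.15, adjusted p = 0.686). NES, CCND1 and EPHA2 lay within 0.03 of 0 on the log2 scale, with 95% intervals between -0.31 and 0.28.

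**Figure D4:**
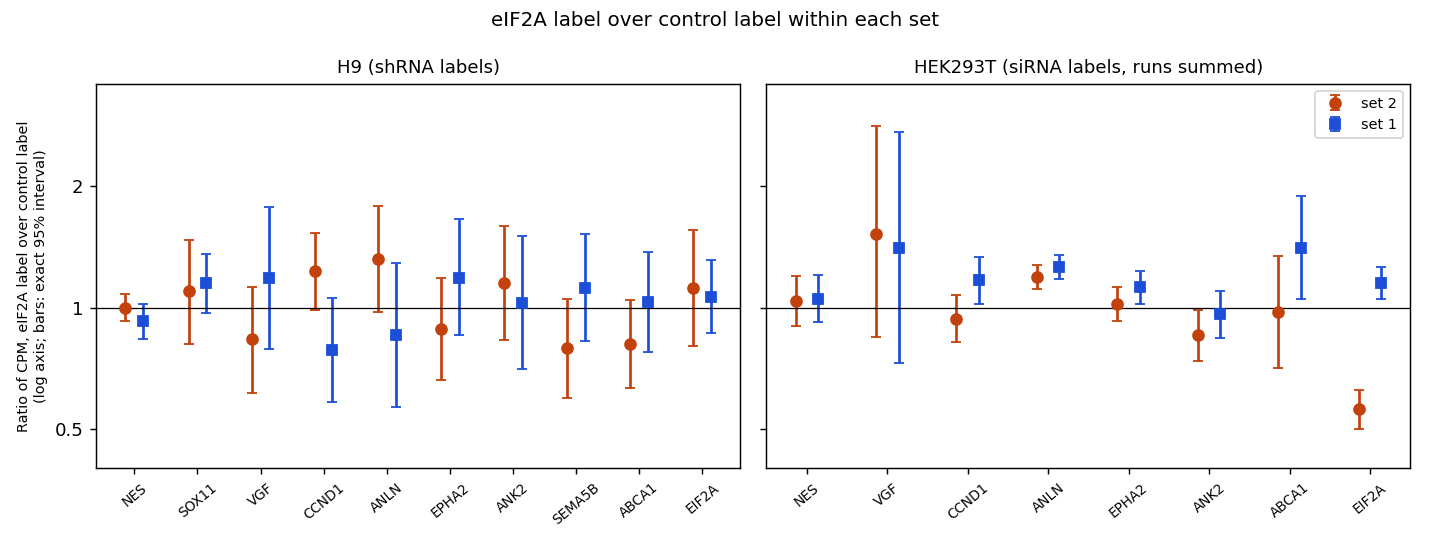
Ratio of CPM in the library labelled eIF2A over its control (log axis) within set 2 (circles) and set 1 (squares), in H9 and in HEK293T with runs summed, with exact 95% intervals for counting error. In HEK293T ANLN is above 1 in both sets (1.19 in set 2, 1.26 in set 1) and EIF2A is below 1 in set 2 alone (0.559, against 1.15 in set 1).

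In the partner lists, which were chosen with results of these data known, 16 of 129 genes passed the HEK293T siRNA test, a share of 12.4% that equals the 12.4% over all genes. In the lists of NES, SOX11 and VGF the called genes were lower: NEFM, a neurofilament (1 of 10, log2 fold -0.46), SOX9 (1 of 18, -0.40) and PCSK1N, an inhibitor of prohormone convertase (1 of 4, -0.70). In the list of CCND1 both called genes of 17 were higher, cyclin E1 (CCNE1, 0.77) and RBL1, a pocket protein (0.57). In that of ANLN, RHOB, a small GTPase, was lower (1 of 19, -0.80). EPHB4 was higher (0.48) and EPHA4 lower (-0.41) among 14 Eph genes, and 0 of 8 ankyrins and spectrins passed. Of 26 semaphorin genes 4 were higher, led by PLXNC1 (1.20), and SEMA3A was lower (-0.49). Of 13 cholesterol genes ABCG1, an exporter that works beside ABCA1 (1.18), and ABCA5 (0.66) were higher. These names were taken after their values were seen. The list medians ran from -0.20 to 0.18, beside 0.00 over all genes.

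In HEK293T no difference between the CBP80 and eIF4E labels was detected for the 7 testable genes. Over the 8 libraries, 0 of 11778 genes passed between CBP80 and eIF4E by edgeR (0%), with 99 at an unadjusted p under 0.05 and 1 with DESeq2. Log2 folds of CBP80 over eIF4E ran from -0.31 for VGF (95% interval -0.96 to 0.35) to 0.13 for ABCA1 (-0.24 to 0.50). For ANLN it was -0.03 (-0.21 to 0.14) and for EPHA2 0.03 (-0.15 to 0.20). Since the paired libraries differ by little more than sampling noise, these intervals compare near copies. The test therefore cannot show whether the cap-binding protein matters for these genes. Whether each pair is 1 library deposited under 2 labels cannot be told from the titles.

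Set 2 and set 1 were also compared in HEK293T, in libraries that played no part in picking the genes. The labels do not say that set numbers are shared between cell lines. With the siRNA label in the model, 100 of 12331 genes passed (0.811%, 41 higher and 59 lower in set 2), and 0 of the 7 genes tested did. NES had 38.2 CPM in the eIF2A sample and 36.7 CPM in the control of set 2, against 42.2 and 40.1 CPM in set 1, a log2 fold of -0.07 (95% interval -0.28 to 0.14). The H9 log2 ratio of NES was 1.21. The HEK293T log2 fold was 0.05 for CCND1 (-0.16 to 0.27, H9 1.38), 0.08 for ANLN (-0.11 to 0.27, H9 1.36) and 0.07 for EPHA2 (-0.12 to 0.26, H9 0.94). ANK2 had -0.08 (-0.29 to 0.12, H9 0.96) and ABCA1 had -0.15 (-0.54 to 0.24, H9 1.01). VGF, with its low counts, had 0.40 (-0.27 to 1.07, H9 1.43). The H9 values are CPM ratios of 2 sets, without the fit's scaling, in genes picked for the size of those ratios. Smaller values in HEK293T therefore carry no weight, and no test was made of the difference between the lines. Among the eIF2A siRNA samples EIF2A also differed between the sets, at 46.7 CPM in set 2 and 96.0 CPM in set 1.

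Levels in the control libraries differed widely between the cell lines, as did most genes (8842 of 12307, 71.8%, 4251 higher and 4591 lower in H9), so a call here says little about the 9. Cell line, arsenite, pull-down and type of RNA interference cannot be told apart in this comparison. NES, VGF, ABCA1, SEMA5B and SOX11 were far higher in H9. NES had 1065 and 481 CPM in the H9 controls of set 2 and set 1, against 36.7 and 40.1 CPM in the HEK293T controls (log2 fold 4.18, SE 0.16, adjusted p = 2.16e-144 by edgeR). VGF had 88.0 and 27.9 CPM in H9, against 2.0 and 1.67 CPM in HEK293T (log2 fold 4.82, SE 0.28), and ABCA1 had 128.4 and 58.3 CPM, against 8.11 and 7.74 CPM (3.40, SE 0.20). SEMA5B had 154 and 78 reads in the H9 controls, against 5 and 5 reads in the deeper HEK293T controls, a ratio of CPM of 156.8 (83.8 to 331). SOX11 had 116 and 247 reads, against 0 and 1, a ratio of 2454 with a counting interval of 438 to 97180. All 8 HEK293T libraries were below all 4 H9 libraries for each of these genes.

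The cell division genes went opposite ways. CCND1 was higher in the H9 controls, at 129.0 and 60.9 CPM, against 43.9 and 39.6 CPM in HEK293T (log2 fold 1.03, SE 0.18, adjusted p = 1.73e-08). Without the H9 control of set 2 this fell short of the threshold, at 0.39 (adjusted p = 0.11). ANLN was lower in H9, at 66.8 and 31.7 CPM, against 148.6 and 142.8 CPM (log2 fold -1.73, SE 0.18, adjusted p = 9.86e-21), and over all libraries its highest H9 value, 88.5 CPM, was below its lowest HEK293T value, 136.0 CPM. EPHA2 and ANK2 depended on the H9 set. EPHA2 had 91.3 and 41.2 CPM in H9, against 82.1 and 78.0 CPM, with the 2 HEK293T values between those of H9 (log2 fold -0.43, adjusted p = 0.0225, but 0.08 without the H9 control of set 1). ANK2 had 62.9 and 33.6 CPM in H9, against 39.5 and 41.3 CPM (log2 fold 0.09, adjusted p = 0.669). The fit took each gene's spread wholly from other genes, and the 9 were picked for a wide spread in H9, so these p-values are too small. The fit's scaling lowers log2 folds here by 0.16 relative to CPM.

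**Figure D5:**
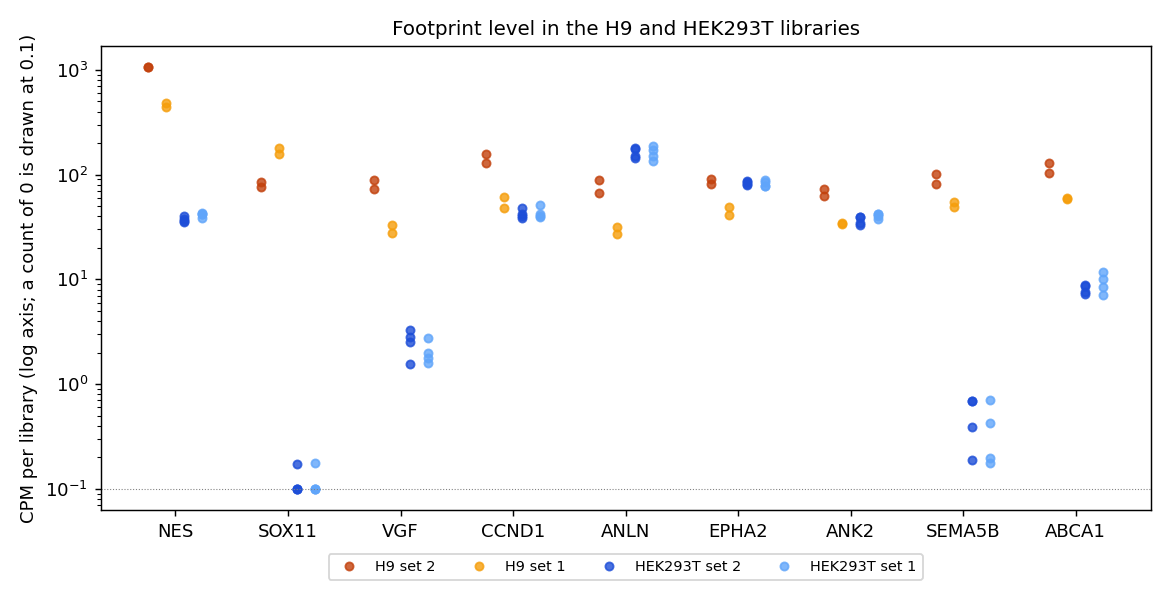
Footprint level in CPM (log axis, counts of 0 drawn at 0.1) of the 9 genes in each H9 and HEK293T library, coloured by line and set. SOX11 and SEMA5B are near 0 in HEK293T, ANLN is higher there than in any H9 library, and EPHA2 and ANK2 in HEK293T lie within the H9 range or beside it.

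In the lists around these genes, 115 of 140 genes passed between the lines (82.1%, against 71.8% over all genes). Higher in H9 were 54.3% of the listed genes and 34.5% of all genes, and lower were 27.9% and 37.3%. Of granin genes 6 of 8 were higher in H9 and 1 lower (median log2 fold 3.76, beside -0.07 over all genes). Of neural progenitor and SOX genes 12 of 19 were higher and 6 lower (median 1.41), and of semaphorin genes 18 of 27 were higher and 3 lower (1.02). CHGA, for example, had 230 to 258 CPM in H9 and 0.52 to 1.35 CPM in HEK293T. Ankyrins and spectrins were the list with most members lower in H9, 5 of 9 against 3 higher (median -1.19). SPTAN1 had 23.4 to 49.6 CPM in H9 and 342 to 418 CPM in HEK293T. Intermediate filament, Eph, cell cycle, cytokinesis and cholesterol lists had 6 of 10, 10 of 17, 7 of 17, 8 of 19 and 6 of 14 higher, with 2, 6, 5, 7 and 4 lower.

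Whether the effect of the eIF2A label differed between the lines was tested directly, as an interaction in 1 fit of 8 samples. No gene passed, 0 of 12911 by edgeR (0%), with 1062 at an unadjusted p under 0.05 and 0 with DESeq2. For the 9 genes the difference of log2 folds, H9 minus HEK293T, ran from -0.73 for VGF (95% interval -3.90 to 2.45) to 0.29 for SOX11, with adjusted p from 0.896 to 1. For NES it was -0.05 (-2.37 to 2.28), an interval too wide to exclude a sizeable difference. The H9 set difference counts as spread here too, and the 9 were picked for it.

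For each of the 9, the closest genes in profile over the 8 samples were listed, by the root mean square difference of centred log2(CPM + 1) among 8639 named genes with at least 10 CPM in H9. The measure takes in the H9 sets, so likeness there is partly what the genes were picked for. NES was closest to PCDHB16, a protocadherin (0.15), and CNN1, the actin-binding calponin (0.15), and VGF to CNN1 (0.20) and NES (0.23). SOX11 had no close match, with CPXM1 at 0.29 and CRMP1 at 0.30. EPHA2 had the closest, TBC1D13 (0.11) and CCN1, a secreted matricellular protein (0.13). CCN1 had 91.7 and 94.0 CPM in the eIF2A and control libraries of H9 set 2, against 60.7 and 59.6 CPM in set 1. ABCA1 was closest to FOXJ1 (0.13) and MMP24 (0.18), ANK2 to NEMP1 and PROSER3 (both 0.18), ANLN to DTNA and SPON1 (both 0.22), CCND1 to MRS2 (0.23) and ALCAM (0.26), and SEMA5B to ACTC1 (0.22) and CA14 (0.23).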

How the data were processed

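Ribosome-protected fragments of 12 libraries were used. TRIzol extraction and Illumina's TruSeq small RNA kit are named in the labels' protocols. Cutadapt and STAR 2.5.2b with build hg19 are named in the submitters' processing notes, while the counter, its strand setting and the annotation are not given in these sources, so overlapping genes on opposite strands may share reads. The deposited values are whole-number counts per RefSeq transcript, not normalized. Lines that name no gene held 96.2 to 96.5% of counts in H9 and 87.5 to 89.5% in HEK293T and stayed out of totals and tests. Of 19305 accessions, 18888 were named through RefSeq's GRCh38.p14 table and 417 were not. No coding lengths were used, so levels are not compared between genes.

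Groups and sets came from sample titles. Counts were tested with edgeR 4.0.16 in R 4.3.3 (filterByExpr, TMM scaling, robust glmQLFit, glmQLFTest, Benjamini-Hochberg adjustment, threshold 0.05), after tests on simulated data. CPM used totals of coding reads. Ratios of H9 sets have exact binomial 95% intervals, and the pairs of libraries were compared by chi-square over genes with at least 20 reads. The CBP80 and eIF4E test used the 8 libraries as deposited.

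The members and lists were chosen with earlier results of these data known. The rule names the 9 genes, EIF2A, up to 3 genes per list of highest H9 level and 2 genes nearest to each member. Some listed genes are not reported here. Alternatives were other scaling, no filter, DESeq2, single IPs, the set as a block and leaving out each library.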

Additional observations from a re-analysis of the deposited data

How the results depend on the processing

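None of the 9 genes passed the shRNA or interaction tests, and none of the 7 tested in HEK293T passed the siRNA, cap-binding or set tests, under any alternative run. The H9 set count of 51 genes was 388 at 1.5-fold, 13 at a mean of at least 50 CPM, 222 in control shRNA libraries only and 314 in eIF2A shRNA libraries only. The HEK293T siRNA count of 1534 was 659 with DESeq2, 473 in the CBP80-labelled and 383 in the eIF4E-labelled libraries, and 75 to 2086 leaving out each sample (75 without the control sample of set 2, 287 without the eIF2A sample of set 1, 983 without the control of set 1). With the set number as a replicate block it was 2993, and the H9 shRNA count stayed 0. EPHA2 changed sign in H9 under that block (0.014). The block changed no call of the 9 genes. Same-numbered samples deviated together (r = 0.61 in H9 and 0.42 in HEK293T), but with 2 pairs and no label that ties them, the numbers were not taken to pair samples. The cap-binding count of 0 was 3 with no count filter, 1 with DESeq2, 6 with each siRNA and set pair as a replicate block and 0 to 2 without each library. The HEK293T set count of 100 was 650 with RLE scaling, 376 with no count filter, 37 with DESeq2, 0 with no siRNA term, and 38, 16, 6 and 19 when, in that reduced model, chosen after seeing the data, 1 sample was left out. The interaction count was 0 to 1 and the cell line count 7218 to 8019 leaving out each sample. The causes were not tested.

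Several log2 folds near 0 changed sign. In HEK293T with eIF2A siRNA, EPHA2 was -0.002 with DESeq2 and -0.054 in eIF4E-labelled libraries, CCND1 was 0.134 in those and NES 0.026 in CBP80-labelled ones. Leaving out each library in H9 gave shRNA log2 folds of -0.813 to 0.652 for NES, -0.456 to 0.817 for SOX11, -0.824 to 0.856 for VGF, -0.999 to 0.757 for CCND1, -0.870 to 0.860 for ANLN, -0.552 to 0.616 for EPHA2, -0.490 to 0.603 for ANK2, -0.628 to 0.436 for SEMA5B and -0.702 to 0.458 for ABCA1. In HEK293T, leaving out each sample gave siRNA log2 folds of -0.074 to 0.019 for NES, -0.114 to 0.066 for CCND1, -0.046 to 0.061 for EPHA2 and -0.042 to 0.319 for ABCA1. It gave cap-binding log2 folds of -0.028 to 0.073 for NES, -0.039 to 0.109 for CCND1, -0.082 to 0.013 for ANLN, -0.011 to 0.060 for EPHA2 and -0.062 to 0.068 for ANK2, and set log2 folds of -0.020 to 0.129 for CCND1, -0.018 to 0.191 for ANLN, -0.228 to 0.055 for ANK2 and -0.317 to 0.052 for ABCA1, including 0.012 for ANK2 and -0.017 for ANLN. The interaction ran from -0.778 to 0.661 for NES, -1.351 to 1.855 for SOX11, -1.354 to 0.350 for VGF, -0.967 to 0.742 for CCND1, -1.064 to 0.621 for ANLN, -0.603 to 0.583 for EPHA2, -0.250 to 0.798 for ANK2, -0.264 to 0.820 for SEMA5B and -0.890 to 0.287 for ABCA1. Between cell lines it ran from -1.107 to 0.075 for EPHA2 and from -0.416 to 0.522 for ANK2. EPHA2 also missed the threshold there with RLE scaling (adjusted p = 0.0752) and DESeq2 (0.2). NES, SOX11, VGF, ANLN, SEMA5B and ABCA1 kept direction and call between lines in all alternatives run.

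Each group held 2 samples. In H9, ANLN and VGF rested on 44 to 133 reads per library, and SOX11 and SEMA5B in HEK293T were below or near the limit that 3 counts set.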
